A study of Mus musculus with 22 samples.

Results

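The 10 genes described here encode GTPases that interferon γ induces in mouse cells. They are 7 guanylate-binding proteins (GBPs: Gbp2, Gbp2b, Gbp3, Gbp4, Gbp5, Gbp6 and Gbp7) and 3 immunity-related GTPases (IRGs: Iigp1, Irgm1 and Igtp). They were chosen by name, with earlier results of these data known. Each symbol was matched to 1 Ensembl identifier among the 52636 genes in the files. RNA of 22 mouse libraries was sequenced in bulk. The libraries were aged and young renal capsule tissue (3 each), macrophages of the renal capsule and of the kidney (4 each), and aged and young libraries named RCAM (4 each). The renal capsule is the thin fibrous sheath around the kidney.

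The labels used here give no strain, sex, exact age or batch for these groups, and the macrophages of capsule and kidney carry no age at all. They describe no genetic change or treatment. Whether animals were pooled, and whether each replicate was its own animal, is not said, so the p-values cover only the variation among these libraries, which may be technical. RCAM is not spelled out and the cell type given for these libraries is whole tissue, whereas the series text speaks of macrophages sorted from capsules. Macrophage markers summed to 42935 to 48087 counts per 1000000 (CPM) in aged RCAM libraries and 43328 to 45907 CPM in young ones, close to the 39785 to 43801 CPM in capsule macrophages. Capsule tissue had 5044.9 to 12476 CPM when aged and 2418.4 to 4861.6 CPM when young. Adipocyte markers summed to 134 to 233 CPM over all RCAM libraries and to at least 18634 CPM in every capsule tissue library, so the label of whole tissue goes against these levels. The total count per library was 27091618 to 43230225 in aged and 20586795 to 22188167 in young capsule tissue, 39320398 to 53396998 in capsule and 31848761 to 49864438 in kidney macrophages, and 44957541 to 51788622 in aged and 49848308 to 54421764 in young RCAM.

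Interferon γ, made mainly by T and natural killer cells, binds a receptor of the chains IFNGR1 and IFNGR2. The receptor acts through the kinases JAK1 and JAK2 and the response acts on GAS elements in target genes. It also induces the transcription factor IRF1, which binds ISRE-like elements. GBPs and IRGs are among the most strongly induced products. In mouse macrophages they coat or disrupt the vacuoles of intracellular parasites and bacteria, and several GBPs promote inflammasome activation.

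Promoters of Gbp4, Gbp6 and Iigp1 were not examined, so nothing is said of motifs in these 3 genes. Promoter windows from RefSeq (build GRCm38.p6, 250 bases before to 50 after a gene's start) were examined for the other 7 of the 10 genes, in 8 windows. Those of 4 genes are shown: Gbp2b, which differed most between groups, Gbp3 and Gbp7, whose age effects differed between RCAM and capsule tissue, and Gbp5, which edgeR fitted on the groups compared, with no block, called in no comparison when all libraries were kept and the default filter was used. The windows are chr3:142594597-142594896 for Gbp2b, chr3:142559794-142560093 for Gbp3, chr3:142496684-142496983 for Gbp5 and chr3:142530086-142530385 for Gbp7, all on the plus strand and written 5′ to 3′. Capitals mark matches to the GAS motif TTCNNNGAA or to the ISRE motif, GAAA and GAAA with any 2 bases between them, read on both strands (on the other strand the ISRE is TTTC, 2 bases and TTTC).
Gbp2b: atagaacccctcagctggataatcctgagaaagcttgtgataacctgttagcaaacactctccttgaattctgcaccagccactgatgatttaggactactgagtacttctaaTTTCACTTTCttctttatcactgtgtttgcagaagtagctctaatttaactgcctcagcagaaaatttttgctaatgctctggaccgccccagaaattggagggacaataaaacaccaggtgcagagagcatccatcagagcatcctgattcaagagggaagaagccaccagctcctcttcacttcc
Gbp3: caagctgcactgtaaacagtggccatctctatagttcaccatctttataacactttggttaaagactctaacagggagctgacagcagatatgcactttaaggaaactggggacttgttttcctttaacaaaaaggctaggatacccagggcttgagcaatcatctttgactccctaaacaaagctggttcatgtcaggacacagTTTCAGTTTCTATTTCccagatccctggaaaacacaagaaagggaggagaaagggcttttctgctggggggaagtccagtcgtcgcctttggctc
Gbp5: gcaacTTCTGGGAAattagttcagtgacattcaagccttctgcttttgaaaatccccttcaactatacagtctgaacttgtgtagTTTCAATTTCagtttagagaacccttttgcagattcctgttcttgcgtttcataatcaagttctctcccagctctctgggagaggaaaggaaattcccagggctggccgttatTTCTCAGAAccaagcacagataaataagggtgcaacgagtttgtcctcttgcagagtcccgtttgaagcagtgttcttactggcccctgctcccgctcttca
Gbp7: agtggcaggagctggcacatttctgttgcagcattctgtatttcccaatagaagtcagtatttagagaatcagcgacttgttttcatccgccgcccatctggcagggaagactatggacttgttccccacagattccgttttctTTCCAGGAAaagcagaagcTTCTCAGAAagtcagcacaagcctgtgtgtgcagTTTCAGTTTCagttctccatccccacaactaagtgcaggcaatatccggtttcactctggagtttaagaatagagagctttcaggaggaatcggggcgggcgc
The ISRE letters were in at least 1 window of all 7 genes, while 3.44% of 32851 mouse promoter windows of the same length held them. In Gbp3 a pair of overlapping ISRE matches merges into 1 run of capitals. GAS letters were in the windows of Gbp5, Gbp7 and Igtp, against 8.3% of all windows, and both motifs together were in those 3 genes, against 0.454% of all windows. The Gbp5 and Gbp7 windows each held 2 GAS matches and 1 ISRE match, and those of Gbp2b and Gbp3 held no GAS match. A match is a description of letters in this window and not a measured site.

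Only 7 of the 10 genes could be measured. Igtp, an IRG also called Irgm3 that regulates the other IRGs, had 0 counts in all 22 libraries. Gbp4 had 2 counts in all and Gbp6 had 49, with 11 of 22 libraries at 0. Each of these 3 lies inside a longer gene on the same strand: 96.9% of the exon bases of Igtp (chromosome 11, 58199556 to 58207591, GRCm38) fell in the span of Irgm2, 99.4% of those of Gbp4 (chromosome 5, 105115767 to 105139586) in that of Gbp8, and 99.9% of those of Gbp6 (chromosome 5, 105270702 to 105293698) in that of Gm43302. The outer gene Irgm2 had 133507 counts and Gbp8 had 24190, but Gm43302 only 214. In Gbp6, 45.95% of 50-base windows, the read length, were also found in Gbp10. The same held across the deposited counts: of 566 protein-coding genes with at least 99% of their span inside another gene on the same strand, 77.4% had 0 counts in all 22 libraries, against 14.3% of 20534 genes inside no other. No level of Igtp, Gbp4 or Gbp6 is read from these files.

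Libraries also differed in how they treated genes inside another gene on the opposite strand. Of 796 such protein-coding genes, 31.9% were at 0 counts over the 6 capsule tissue libraries and 88.4% over the 16 macrophage and RCAM libraries. The family member Tgtp2 was listed at 0 in all 16 macrophage and RCAM libraries, against 9.46, 10.04 and 11.7 CPM in aged and 4.81, 2.54 and 5.90 CPM in young capsule tissue. Even B2m, the light chain of MHC class I that nearly all cells express, was listed at 0 in those 16 libraries. Levels were therefore not tested between capsule tissue and sorted cells. None of the 7 measured genes had over 1% of its exon bases in the span of an opposite-strand gene.

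**Figure D1:**
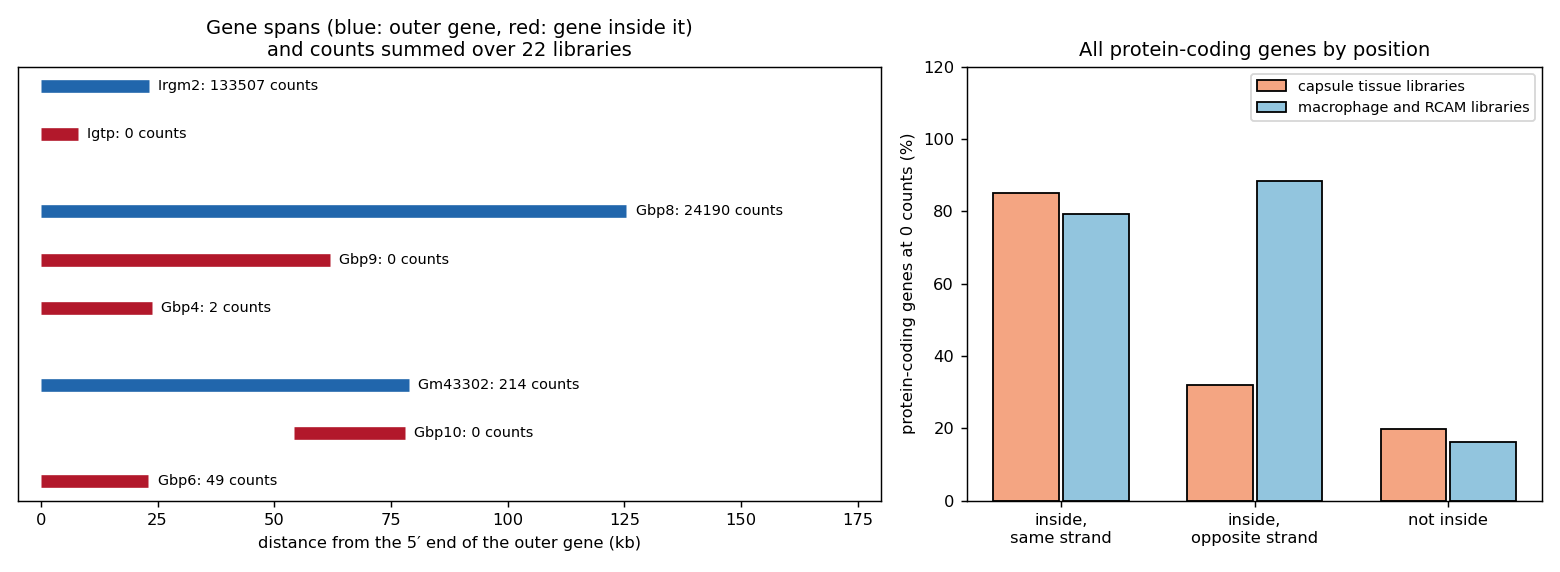
Left, spans of 3 outer genes (blue) and of the family genes inside them (red), in kb from the 5′ end of the outer gene, with counts summed over 22 libraries. Right, share of protein-coding genes at 0 counts (%), by position and kind of library. Igtp and Gbp9 had 0 counts inside well-counted genes, and genes inside an opposite-strand gene were at 0 far more often in macrophage and RCAM libraries (88.4%) than in capsule tissue (31.9%).

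The 7 measured genes were Gbp2b, Gbp2, Gbp3, Gbp5 and Gbp7, which stand together on chromosome 3 (142493978 to 142638008), Irgm1 on chromosome 11 (48861968 to 48871683) and Iigp1 on chromosome 18 (60376027 to 60392634). They share little sequence: 3.75% of the 50-base windows of Gbp3 were also in Gbp7, 2.03% of those of Gbp2 in Gbp2b, and 10.5% of those of Gbp7 in the overlapping gene model Gm43802. Per kilobase of exon, the level in young RCAM libraries was highest for Gbp2, at 91.5 ± 21.1 CPM per kb (SD, n = 4). It was 70.0 ± 36.9 for Gbp2b, 58.1 ± 5.95 for Gbp3, 41.0 ± 9.27 for Iigp1, 38.8 ± 4.89 for Irgm1, 32.3 ± 3.90 for Gbp7 and 3.69 ± 0.92 for Gbp5. Gbp5 was thus the lowest per kilobase there.

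Summed over the 10 genes, CPM was highest in young RCAM libraries, at 1288 ± 268 (SD, n = 4), and lower in capsule macrophages (869 ± 138) and aged RCAM (775 ± 65.9), whose ranges overlapped. Aged capsule tissue followed at 609 ± 72.3 (n = 3), then kidney macrophages at 522 ± 99.8 (n = 4), and young capsule tissue was lowest at 378 ± 109 (n = 3). Young RCAM had the highest mean level of every measured gene but Gbp5, whose highest mean was in aged capsule tissue. Gbp2b, named Gbp1 in older mouse work, spanned the widest range of levels: 197 ± 104 CPM in young RCAM, 93.5 ± 22.3 in capsule macrophages, 49.6 ± 7.65 in aged RCAM and 16.4 ± 6.90 in kidney macrophages. None of these 4 ranges overlapped. In capsule tissue Gbp2b averaged 10.3 ± 11.98 CPM when aged and 6.82 ± 4.76 CPM when young. For Gbp2 and Iigp1, aged capsule tissue had the second highest mean, though its range overlapped that of capsule macrophages. For Gbp3, Irgm1 and Gbp7, both capsule tissue groups had lower means than every macrophage and RCAM group, though for Gbp7 aged capsule tissue overlapped kidney macrophages. How many of all genes share this order was not counted, and tissue was not tested against sorted cells.

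**Figure D2:**
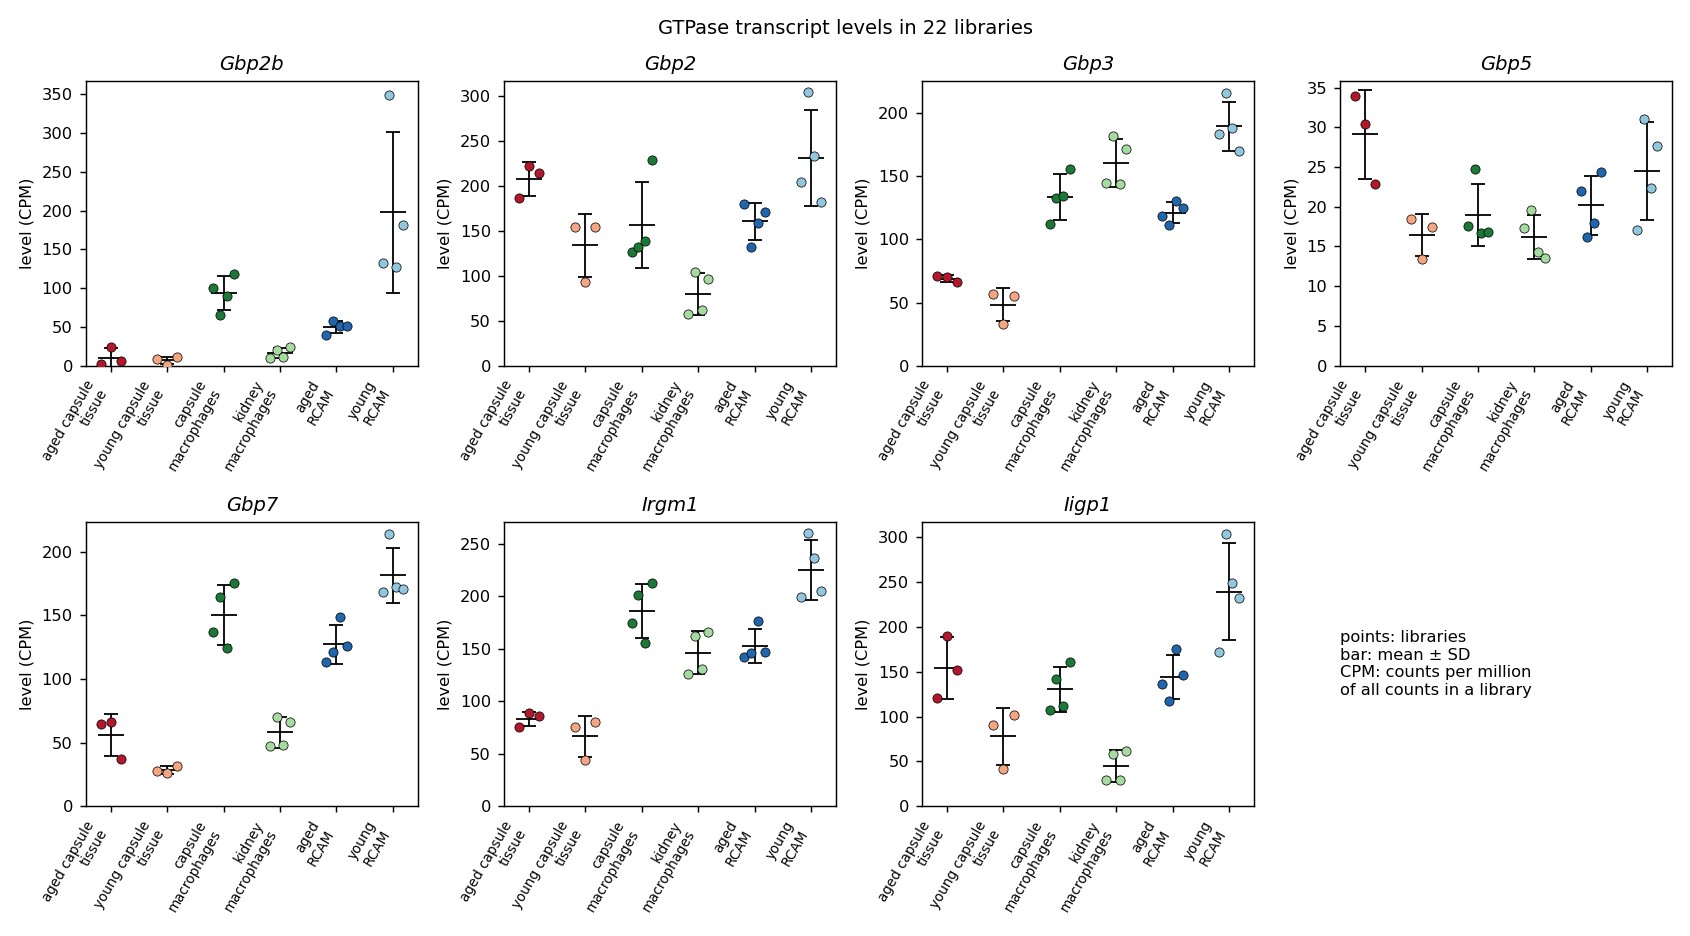
Level (CPM of all counts in a library) of the 7 measured GTPase genes by group; points are libraries, bars the mean ± SD (n = 3 in capsule tissue, n = 4 elsewhere), cut at 0. Gbp2b ran between 1.46 and 349 CPM and was highest in young RCAM, where replicate 2 stood apart, while Gbp5 kept between 13.4 and 33.98 CPM in all libraries.

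The first comparison set macrophages of the capsule against those of the kidney. Of 7 genes tested, 5 were higher in capsule macrophages and none lower at an adjusted p under 0.05 (edgeR quasi-likelihood F test with Benjamini-Hochberg adjustment over 15701 genes). In the same comparison 27.3% of all genes were called higher and 28.2% lower, so a call is common here, while the median log2 fold change was 1.18 over the 7 genes and -0.03 over all genes. Of the 7, 4 had levels that did not overlap, all higher in capsule macrophages, against 18.9% of all genes.

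Gbp2b had 101, 65.2, 89.8 and 118 CPM in capsule macrophages, against 9.83, 20.4, 11.4 and 24.0 CPM in kidney macrophages. Every capsule library was above every kidney library, a 6.52-fold difference (log2 2.70 ± 0.31, SE; edgeR adjusted p = 4.16e-05). Iigp1 (also called Irga6), an effector IRG that loads onto the vacuole of the parasite Toxoplasma, had 108, 142, 112 and 160 CPM in capsule macrophages, against 29.5, 58.2, 29.9 and 61.7 CPM in kidney macrophages. The groups did not overlap (log2 1.74 ± 0.28, edgeR adjusted p = 0.000366). Gbp7, which in mouse macrophages aids assembly of the NADPH oxidase, had 137, 164, 124 and 175 CPM in capsule macrophages, against 47.4, 70.5, 47.9 and 66.6 CPM in kidney macrophages, a 2.98-fold difference without overlap (edgeR adjusted p = 3.21e-05).

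Gbp2, a GBP that targets vacuoles, had 126, 132, 139 and 228 CPM in capsule macrophages, against 57.0, 104, 61.5 and 96.2 CPM in kidney macrophages, again without overlap (log2 1.18 ± 0.26, edgeR adjusted p = 0.0027). Irgm1, a regulatory IRG tied to autophagy, had 175, 201, 156 and 213 CPM in capsule macrophages, against 126, 163, 131 and 166 CPM in kidney macrophages. These levels overlapped, and its difference was the smallest of the 5 called (log2 0.55 ± 0.14, edgeR adjusted p = 0.00647). Kidney replicates 2 and 4 were above replicates 1 and 3 in all 5 of these genes.

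Gbp3 averaged 134 ± 17.9 CPM in capsule and 161 ± 19.3 CPM in kidney macrophages (SD, n = 4 each) and was not called (log2 -0.06 ± 0.13, adjusted p = 0.72). Its sign turned to 0.02 without capsule replicate 1 and to 0.01 without kidney replicate 2. The plain CPM and the fold change differ because TMM scaling raised the log2 fold change by a median of 0.21 over genes in this comparison. Gbp5, a GBP that promotes NLRP3 inflammasome assembly in mouse macrophages, averaged 18.9 ± 3.90 CPM in capsule and 16.2 ± 2.79 CPM in kidney macrophages (log2 0.44 ± 0.17, edgeR adjusted p = 0.054). It passed the threshold without capsule replicate 3 (0.0444), without kidney replicate 2 (0.0283), by DESeq2 (0.0404), by limma-voom (0.0492) and with the replicate number as a block (0.0212), and its log2 fold change was 0.28 without capsule replicate 2. Kidney tubule markers summed to 16.3 to 149 CPM in capsule macrophages and to 1484 to 2697 CPM in kidney macrophages, and none of the 12 was at 0 in the kidney. NK cell markers summed to 34.1 to 53.9 CPM in capsule macrophages and to 62.5 to 136 CPM in kidney macrophages. T cell markers summed to 57.0, 51.9, 68.2 and 65.9 CPM in capsule macrophages, against 7.97, 17.9, 8.23 and 18.9 CPM in kidney macrophages. Of 11 tested, 4 were called higher and none lower, where 27.3% of all genes were called higher and 28.2% lower. Sums of fibroblast and mesothelial markers (627 to 911 CPM in capsule, 14.3 to 21.1 CPM in kidney macrophages) and of macrophage markers (39785 to 43801 CPM in capsule, 31463 to 34906 CPM in kidney macrophages) were also higher in the capsule without overlap. The part of such transcripts in the differences was not tested.

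Genes of the upstream pathway were called in both directions. IFNGR2, the receptor chain whose level limits the response in some cells, had transcripts of 160, 144, 147 and 153 CPM in capsule macrophages, against 284, 283, 297 and 290 CPM in kidney macrophages, and was lower in the capsule (Ifngr2, log2 -0.72 ± 0.07, edgeR adjusted p = 9.68e-06). Ifngr1 was also lower (log2 -0.25 ± 0.07, adjusted p = 0.0124). Jak1 was higher (log2 0.87 ± 0.08), and Ptpn2, a phosphatase that restrains JAK signalling, was lower (log2 -0.71 ± 0.08). Irf1 averaged 303 ± 37.0 CPM in capsule and 357 ± 69.3 CPM in kidney macrophages and was not called (edgeR adjusted p = 0.871). Its fold change turned slightly positive without capsule replicate 3 or kidney replicate 2 or 4. Ifng itself had at most 18 counts in a macrophage library and was not tested.

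Of 12 genes of the pathway list that were tested, 3 were higher and 4 lower. Of 14 other interferon γ targets, 3 were higher and 4 lower, near the shares over all genes (27.3% higher and 28.2% lower). The 4 of smallest p were Cd74, the MHC class II invariant chain (log2 -0.71 ± 0.10), Nlrc5, which activates MHC class I genes (-1.09 ± 0.16), and Ciita, which activates class II genes (-0.89 ± 0.14), all lower, and Tapbp, a peptide-loading factor, which was higher (0.57 ± 0.12). Of 10 other GBP and IRG family genes, 5 were higher, among them Gm5431 (1.63 ± 0.14), Irgq (1.13 ± 0.14), Irgm2 (0.77 ± 0.14) and F830016B08Rik (1.17 ± 0.21), and 2 were lower, Gbp8 (-0.62 ± 0.14) and Gvin1 (-0.97 ± 0.34). Gvin1, chosen after its value was seen, lost its call when any library but capsule replicate 4 or kidney replicate 3 was left out, with no filter on low counts and with the replicate block.

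Of 24 type I interferon genes, 7 were higher and 7 lower, near the shares over all genes (27.3% higher and 28.2% lower). Of the 4 of smallest p, Oasl1, which restrains Irf7 translation in mice (1.87 ± 0.14), Ifi27l2a (1.26 ± 0.12) and Cmpk2 (1.28 ± 0.14) were higher, and Oas2, an antiviral sensor, was lower (-1.05 ± 0.17). Of 17 partners of GBPs in autophagy and inflammasomes, 6 were higher and 5 lower, against the same shares over all genes. Those lower included Il1b, encoding the cytokine interleukin 1β that inflammasomes mature, at 41.3, 45.9, 50.4 and 50.8 CPM in capsule macrophages, against 480, 508, 572 and 564 CPM in kidney macrophages (log2 -3.29 ± 0.10). Nlrp3 (-1.33 ± 0.09) and Aim2 (-1.46 ± 0.12), which encode inflammasome sensors, were lower too, and Gabarap, an autophagy adaptor of the ATG8 family, was higher (1.10 ± 0.11). In each of these calls the edgeR adjusted p was 0.0337 or less. The median log2 fold change was -0.00 in the pathway list, -0.06 in the other targets, 0.27 in the type I list, -0.02 in the partners and 0.65 in the other family genes.

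**Figure D3:**
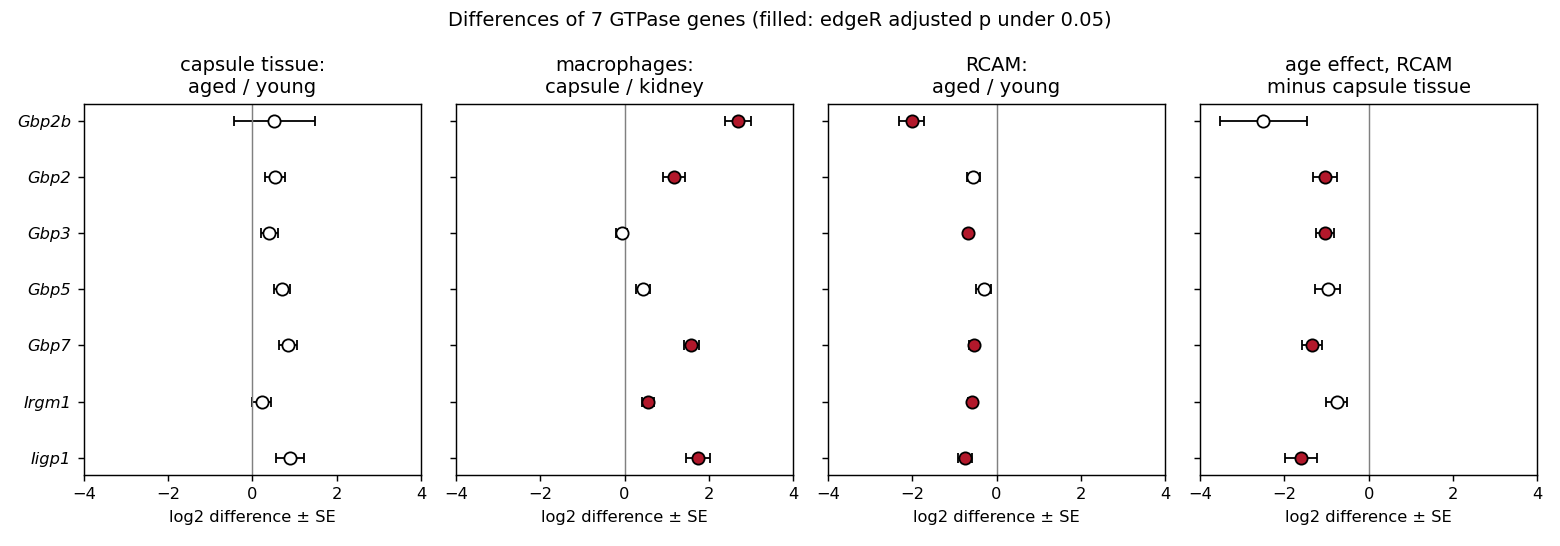
Log2 difference ± SE of the 7 measured genes in 3 comparisons and in the difference of the age effects (RCAM minus capsule tissue); filled points passed an edgeR adjusted p of 0.05. Between macrophages, 5 genes were higher in the capsule, and with age 5 were lower in RCAM while none was called in capsule tissue, where all 7 points lay above 0.

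The second comparison set aged against young RCAM libraries, where the log2 fold change was negative in all 7 measured genes, though not all were called. Of 7 genes tested, 5 were lower and none higher (edgeR adjusted p under 0.05 over 15182 genes), while 1.38% of all genes were called lower and 3.43% higher. The median log2 fold change was -0.58 over the 7 genes and -0.01 over all genes. For 5 genes the groups did not overlap, all lower in aged RCAM, against 3.98% of all genes.

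Gbp2b had 39.4, 57.9, 50.6 and 50.5 CPM in aged RCAM, against 132, 349, 127 and 181 CPM in young RCAM. All aged libraries were below all young ones, a 4.04-fold difference (log2 -2.01 ± 0.30, edgeR adjusted p = 0.00574). Young replicate 2 was the highest young library in all 7 measured genes. Without it every log2 fold change was smaller in size than with all libraries. It was then -1.59 for Gbp2b, -0.60 for Gbp3, -0.50 for Irgm1 and -0.44 for Gbp7. For Iigp1 it was -0.61, for Gbp2 -0.39 and for Gbp5 -0.17. Gbp3 had 118, 111, 130 and 125 CPM in aged RCAM, against 184, 216, 189 and 170 CPM in young RCAM (log2 -0.67 ± 0.09, edgeR adjusted p = 0.00276). Irgm1 had 142, 146, 177 and 147 CPM in aged RCAM, against 200, 260, 237 and 205 CPM in young RCAM (log2 -0.58 ± 0.10, edgeR adjusted p = 0.0111). The groups of both genes stood apart, and the calls of Gbp2b, Gbp3 and Irgm1 held whichever single library was left out, although that of Gbp2b was lost in 1 fit over all 6 groups (adjusted p = 0.0618).

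Gbp7 had 114, 121, 149 and 126 CPM in aged RCAM, against 168, 214, 173 and 171 CPM in young RCAM, without overlap (log2 -0.54 ± 0.11, edgeR adjusted p = 0.0208). Its adjusted p was 0.054 to 0.0599 without aged replicate 1, 2 or 4, 0.072 with the replicate block and 0.122 in 1 fit over all 6 groups. Iigp1 had 137, 117, 175 and 147 CPM in aged RCAM, against 172, 303, 249 and 232 CPM in young RCAM. The levels overlapped, in that aged replicate 3 was just above young replicate 1 (log2 -0.75 ± 0.16, edgeR adjusted p = 0.0256). Its call was lost in 6 of 8 leave-outs, without aged replicate 1, 2 or 4 or young replicate 2, 3 or 4, with an adjusted p of 0.0568 to 0.0725, and also with the replicate block (0.0717) and in 1 fit over all 6 groups (0.161).

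Gbp2 had 180, 132, 159 and 170 CPM in aged RCAM, against 204, 304, 232 and 181 CPM in young RCAM. The groups did not overlap, but the adjusted p was 0.0667 (log2 -0.55 ± 0.15), and it passed at 0.0472 without young replicate 4 and at 0.00497 by DESeq2. Gbp5 averaged 20.2 ± 3.74 CPM in aged and 24.5 ± 6.12 CPM in young RCAM, with wide overlap (log2 -0.30 ± 0.18, adjusted p = 0.461). Fibroblast and mesothelial markers summed to 936 to 2670 CPM in aged RCAM and 546 to 753 CPM in young RCAM, with 5 of 10 tested markers called higher. Of 6 tested B cell markers, 4 were also called higher. Endothelial markers summed to 94.9 to 171 CPM in aged and 73.0 to 82.1 CPM in young RCAM, with 2 of 9 called higher. Over all genes 3.43% were called higher. None of 15 macrophage markers was called by edgeR, DESeq2 or limma-voom, and 2 had an unadjusted p under 0.05 in edgeR, as had 17.4% of all genes. The part of other cells in the result was not tested.

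Of 10 other members of the family tested, 4 were lower and none higher, against 1.38% of all genes lower and 3.43% higher. Their median log2 fold change was -0.43. Gm5431 had 79.3, 89.9, 91.5 and 74.5 CPM in aged RCAM, against 149, 137, 145 and 151 CPM in young RCAM (log2 -0.82 ± 0.09, edgeR adjusted p = 0.00151). Irgm2, which with Irgm1 and Igtp regulates effector IRGs, had 138, 119, 152 and 143 CPM in aged RCAM, against 169, 194, 185 and 179 CPM in young RCAM (log2 -0.42 ± 0.08, edgeR adjusted p = 0.0156). The calls of Irgm2, Gm12250 and Gm4951 were lost with the replicate block and in 1 fit over all 6 groups, which left 1 call of the 4, Gm5431. Igtp lies within the Irgm2 span, and the counts do not show whether its reads were dropped or counted to Irgm2. Gm12250 (-0.73 ± 0.16) and Gm4951 (-0.45 ± 0.10) were also called, each losing the call in 6 of 8 leave-outs (all but young replicate 1 and aged replicate 4 for Gm12250, and all but young replicate 1 and aged replicate 3 for Gm4951).

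In the wider interferon lists calls in RCAM were about as frequent as over all genes, of which 4.8% were called in either direction. Of 14 other interferon γ targets tested, none was called by edgeR, DESeq2 or limma-voom, 2 had an unadjusted p under 0.05 (17.4% of all genes had), and the smallest p was that of Cxcl9, a chemokine (log2 -0.57 ± 0.23, edgeR adjusted p = 0.224), whose log2 fold change was -0.29 without young replicate 2. Of 24 type I interferon genes 1 was called, Ifi44, which was higher (1.10 ± 0.26, adjusted p = 0.0436) and lost its call when any library but aged replicate 1 or young replicate 3 was left out and in 1 fit over all 6 groups. The median of that list was -0.20, with 21 of 24 values below 0. Of 12 pathway genes only Socs3, a feedback inhibitor of cytokine signalling, was called. It had 103, 86.8, 91.7 and 111 CPM in aged RCAM, against 71.7, 58.8, 47.5 and 62.9 CPM in young RCAM (0.67 ± 0.14, adjusted p = 0.0236), and lost its call without aged replicate 1 or 4 or young replicate 2 or 4.

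Irf1 averaged 279 ± 20.98 CPM in aged and 294 ± 63.0 CPM in young RCAM (log2 -0.10 ± 0.13, edgeR adjusted p = 0.784), and its sign turned to 0.05 without young replicate 2. The receptor chains had positive fold changes, Ifngr1 0.26 ± 0.08 (adjusted p = 0.0989) and Ifngr2 0.28 ± 0.07 (adjusted p = 0.0537), and each passed when 1 young library was left out, replicate 1 for Ifngr1 and replicate 3 for Ifngr2. Both also passed by DESeq2, and Ifngr2 passed by limma-voom and with at least 10 counts in every library. Of 17 GBP partners, Il1b was called, with 58.0, 49.1, 39.1 and 61.7 CPM in aged RCAM, against 17.0, 20.7, 30.2 and 23.8 CPM in young RCAM (1.16 ± 0.17, adjusted p = 0.0056). Ifng was at 0 in 3 of 4 aged and 2 of 4 young RCAM libraries and at most 8 counts elsewhere.

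**Figure D4:**
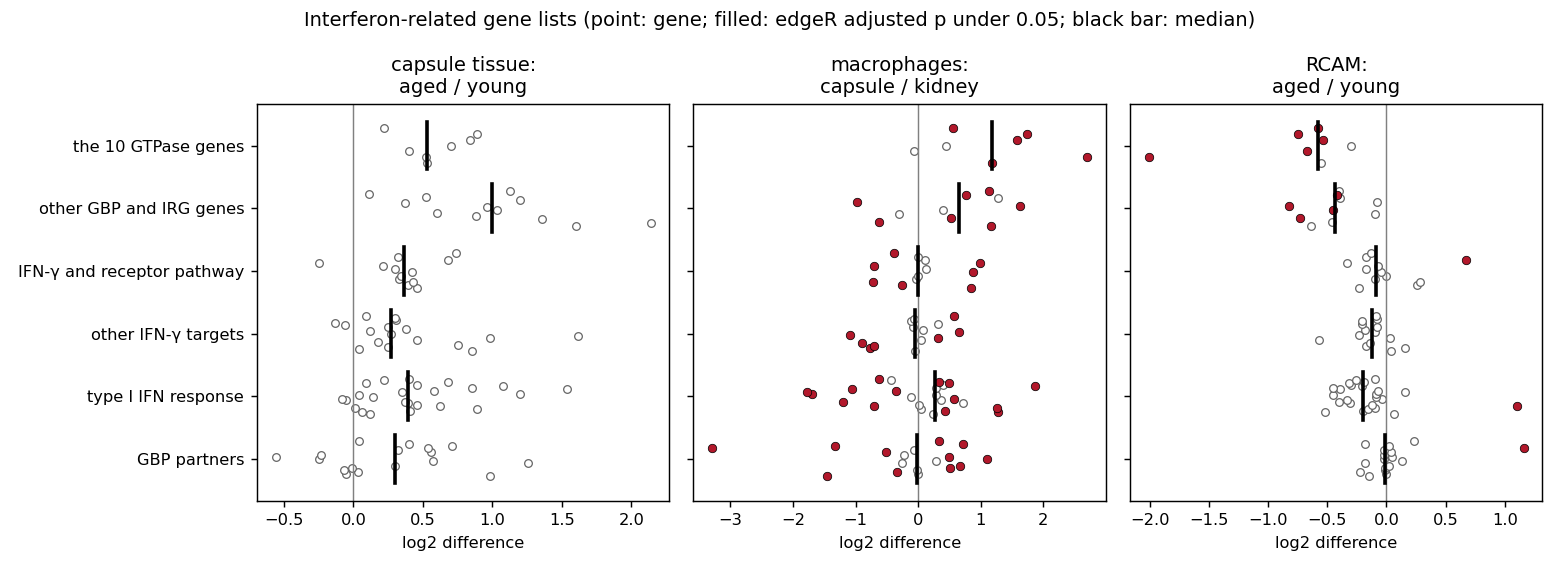
Log2 difference of each tested gene of 6 lists in the 3 comparisons; filled points passed an edgeR adjusted p of 0.05, open points did not, and black bars are list medians. In RCAM the GTPase genes and other family genes lay below 0 (medians -0.58 and -0.43), while medians of the other 4 lists were between -0.20 and -0.01.

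The third comparison set aged against young capsule tissue, where no member was called. None of 7 genes passed (edgeR adjusted p under 0.05), against 0.239% of all genes, while 3 of the 7 had an unadjusted p under 0.05, as had 22.5% of all genes. DESeq2 called 2 higher, where it called 4.61% of all genes higher and 11.5% in either direction, and limma-voom called 0. With the replicate block edgeR called Gbp5 alone (13.4% of all genes in either direction). With 1 fit over all 6 groups it called 4 higher, Gbp3, Gbp5, Gbp7 and Iigp1, against 11.8% of all genes higher and 15.9% in either direction. All 7 fold changes were above 0, with a median of 0.53 against 0.03 for all genes. TMM scaling lowered log2 fold changes by a median of 0.12 here. For 5 genes the groups did not overlap, all higher in aged capsules, against 19.1% of all genes.

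Gbp7 had 64.5, 66.1 and 36.9 CPM in aged capsule tissue, against 28.03, 25.8 and 32.0 CPM in young capsule tissue (log2 0.84 ± 0.22, edgeR adjusted p = 0.104). Gbp5 had 33.98, 30.4 and 22.9 CPM in aged capsule tissue, against 18.5, 13.4 and 17.4 CPM in young capsule tissue (log2 0.70 ± 0.20, edgeR adjusted p = 0.109). Neither gene overlapped between ages, and DESeq2 called both (adjusted p = 0.0298 for Gbp7 and 0.036 for Gbp5). Iigp1 had 121, 190 and 152 CPM in aged capsule tissue, against 90.7, 41.8 and 101 CPM in young capsule tissue (log2 0.89 ± 0.34, edgeR adjusted p = 0.178). Gbp2 had 186, 222 and 214 CPM in aged capsule tissue, against 154, 92.7 and 154 CPM in young capsule tissue (log2 0.53 ± 0.24, edgeR adjusted p = 0.237).

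Gbp3 had 70.9, 70.2 and 66.1 CPM in aged capsule tissue, against 56.8, 33.4 and 55.1 CPM in young capsule tissue (log2 0.40 ± 0.20, edgeR adjusted p = 0.287). Irgm1 had 75.7, 88.6 and 85.6 CPM in aged capsule tissue, against 75.2, 44.5 and 79.9 CPM in young capsule tissue, with overlap, and had a log2 fold change of 0.22 ± 0.23, which became -0.02 once young replicate 2 was left out. Gbp2b had 1.62, 24.0 and 5.35 CPM in aged capsule tissue, against 8.45, 1.46 and 10.5 CPM in young capsule tissue. Replicate 2 was the highest aged and the lowest young library for Gbp2b, whose log2 fold change was 0.52 ± 0.96 with all libraries and -1.05 without aged replicate 2. Young replicate 2 was also the lowest young library in all 7 genes. Without it the log2 fold change was 0.18 for Gbp3, 0.31 for Gbp2, 0.57 for Iigp1 and 0.03 for Gbp2b, and without replicate 2 of both ages it was 0.41 for Iigp1.

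Sums of immune cell markers were also higher in aged than in young capsule tissue. In bulk tissue, more cells of a type and more RNA per cell cannot be told apart. Macrophage markers summed to 5044.9 to 12476 CPM in aged and 2418.4 to 4861.6 CPM in young capsule tissue. None of them was called by edgeR or limma-voom, and DESeq2 called 6 higher (4.61% of all genes). In edgeR 9 had an unadjusted p under 0.05, as had 22.5% of all genes. T cell markers summed to 175 to 205 CPM in aged and 74.7 to 88.2 CPM in young capsule tissue. NK cell markers summed to 94.5 to 103 CPM in aged and 23.8 to 52.0 CPM in young capsule tissue. B cell markers summed to 238 to 293 CPM in aged and 137 to 180 CPM in young capsule tissue, with 2 of 10 called higher (0.153% of all genes). None of these 4 lists had a marker at 0 in any capsule library. Kidney tubule markers ran the other way, at 1330 to 6311 CPM in aged and 6504 to 25390 CPM in young capsule tissue. Adrenal cortex markers reached 6083 CPM in aged and 190 CPM in young replicate 2. The part of these cells in the GTPase levels was not tested.

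No gene of the interferon lists was called in the fit of these 6 libraries either: none of 12 other family genes, 12 pathway genes, 17 other interferon γ targets, 24 type I genes or 17 partners passed in edgeR. Other edgeR settings did call some, all higher. With the replicate block there were 3, 0, 3, 4 and 1 of them in that order (5.77% of all genes higher), in 1 fit over all 6 groups 5 of 13, 8 of 13, 5 of 18, 7 of 24 and 6 of 17 (11.8%), and with no filter on low counts F830016B08Rik, Nlrc5 and Casp1 (1.6%). At an unadjusted p under 0.05 there were 6, 3, 3, 7 and 2 of them in the same order, DESeq2 called 4, 0, 2, 2 and 1 higher, and limma-voom called 0 in each. Over all genes 22.5% had an unadjusted p under 0.05 and DESeq2 called 4.61% higher. The fold changes were above 0 in 12 of 12, 11 of 12, 15 of 17, 22 of 24 and 11 of 17 of them, with medians of 0.99, 0.36, 0.27, 0.40 and 0.30. Those of smallest p included F830016B08Rik (log2 2.14 ± 0.53), Nlrc5 (1.62 ± 0.36) and Casp1, the inflammasome protease (1.26 ± 0.30), with adjusted p of 0.0852 to 0.0929. Irf1 had 106, 97.9 and 107 CPM in aged capsule tissue, against 84.8, 60.5 and 83.3 CPM in young capsule tissue (log2 0.33 ± 0.17, edgeR adjusted p = 0.3), and its log2 fold change was 0.18 without young replicate 2. Ifngr1 (0.39 ± 0.19) and Ifngr2 (0.43 ± 0.21) passed only in 1 fit over all 6 groups. Ifng had 7 to 19 counts in each aged and 1 to 7 counts in each young capsule library, too few to test.

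**Figure D5:**
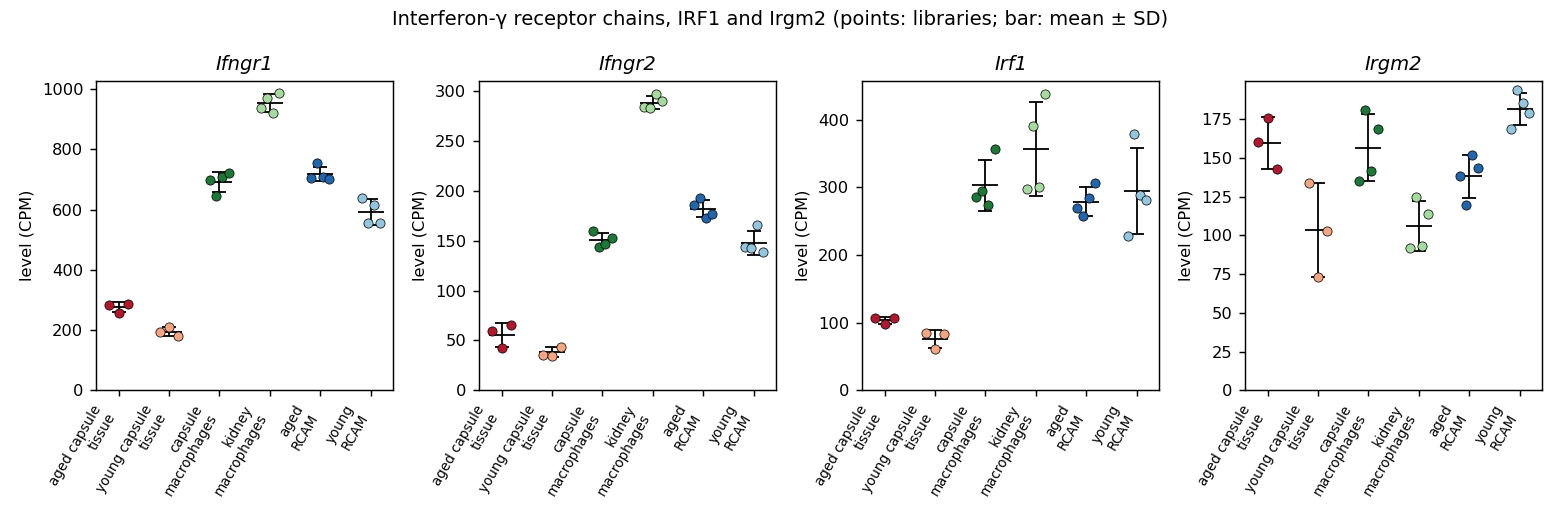
Level (CPM) of the interferon γ receptor chains Ifngr1 and Ifngr2, of Irf1 and of Irgm2 by group; points are libraries and bars the mean ± SD (n = 3 in capsule tissue, n = 4 elsewhere). In capsule macrophages Ifngr2 stood at 144 to 160 CPM, against 283 to 297 CPM in those of the kidney, while Irf1 averaged 303 CPM in capsule and 357 CPM in kidney macrophages.

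The difference between the age effects was tested directly, as the change with age in RCAM minus that in capsule tissue. It was negative in all 7 genes and called in 4 (edgeR adjusted p under 0.05 over 18856 genes), where 1.93% of all genes were called negative and 3.12% positive. The median was -1.04 over the 7 genes and 0.06 over all genes. All 4 groups were in 1 fit, which takes a gene's spread as equal in both materials. Replicates of capsule tissue mostly differed more from each other than those of RCAM did. Gbp7 differed by -1.34 ± 0.24 on the log2 scale (edgeR adjusted p = 0.0161) and Gbp3 by -1.03 ± 0.21 (edgeR adjusted p = 0.0223), and both calls held with any 1 library left out. Iigp1 differed by -1.60 ± 0.38 (edgeR adjusted p = 0.0342), a call lost in 8 of 14 leave-outs (aged RCAM replicate 1, 2 or 4, young RCAM replicate 2, 3 or 4, aged capsule replicate 2, and young capsule replicate 1). Gbp2 differed by -1.04 ± 0.28 (edgeR adjusted p = 0.048), a call kept in 3 of 14, without young capsule replicate 2 or 3 or young RCAM replicate 4. With the replicate block the calls of Iigp1 (adjusted p = 0.0564) and Gbp2 (0.0832) were lost, and that of Gbp2 also without capsule replicate 2 of both ages (-0.88, adjusted p = 0.0782).

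For the other 3 genes the difference was not called: Gbp5 (-0.97 ± 0.29, edgeR adjusted p = 0.0639), Irgm1 (-0.76 ± 0.25, edgeR adjusted p = 0.0846) and Gbp2b (-2.50 ± 1.03, edgeR adjusted p = 0.167). Gbp5 and Irgm1 passed by DESeq2 (0.0152 and 0.0269 in that order) and in 1 fit over all 6 groups (0.0157 for each), which called 5.53% and 7.64% of all genes negative. Gbp5 also passed with at least 10 counts in every library (0.0417), without aged capsule replicate 3 (0.0427) and without young RCAM replicate 1 (0.0451). The value of Gbp2b was -0.89 without aged capsule replicate 2 and -0.48 without capsule replicate 2 of both ages. Of 13 other family genes in this fit, 5 were called negative and none positive, against 1.93% and 3.12% of all genes. Among the 13, Tgtp2 and 9930111J21Rik2 had no counts in RCAM. The 5 called were F830016B08Rik (-2.74 ± 0.58), Gbp8 (-1.30 ± 0.34), Gm4951 (-1.37 ± 0.35), Gm12250 (-1.29 ± 0.33) and Irgm2 (-0.90 ± 0.22). F830016B08Rik lost its call without aged capsule replicate 1, and the other 4 lost theirs in 10 to 12 of 14. The calls of Irgm2, Gm12250 and Gm4951 were also lost with the replicate block, and those of F830016B08Rik, Gbp8 and Gm12250 by limma-voom and without capsule replicate 2 of both ages. Among the other lists Nlrc5 (-1.81 ± 0.38) and Casp1 (-1.40 ± 0.29) were called negative, and both lost the call without young capsule replicate 1. Irf1 was not called. Macrophage markers also had negative differences in 15 of 15 genes, with a median of -0.91 and 2 called, Mertk and Mrc1 (1.93% of all genes were called negative). Their part in the differences of the GTPases was not tested.

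Within groups the genes varied together to unequal degrees. After subtracting each group's mean from log2 CPM, the 21 pairs of the 7 genes had Pearson's r between 0.16 and 0.92 over 22 libraries (median 0.58), as a description over libraries that share depth and scaling. Young RCAM replicate 2 was the highest and young capsule replicate 2 the lowest library of its group in all 7 genes. The part of such single libraries in r was not tested. Irgm1 and Iigp1, on separate chromosomes, were the closest pair (0.92), and Gbp2b and Gbp5, in 1 cluster, the least alike (0.16). Against the mean of the other 6 genes, r was 0.92 for Iigp1, 0.87 for Irgm1, 0.81 for Gbp3, 0.78 for Gbp2, 0.65 for Gbp2b, 0.58 for Gbp7 and 0.32 for Gbp5.

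Among 8982 other genes whose log2 CPM averaged 3 or more, the 8 with the pattern most like the mean of the 7 were Vps37b (r = 0.854), Irgm2 (0.808), Nudc-ps1 (0.804), Gm12250 (0.803), Gm4951 (0.796), Irf1 (0.791), Wdr46 (0.764) and Ccl5 (0.752). The median r over all these genes was -0.035. Thus 3 of the 8 were other IRG family genes, Irf1 is a transcription factor of the pathway, and Ccl5 is a chemokine of T and NK cells. The pattern was taken from deviations within groups, so it does not depend on the group differences given above.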

How the data were processed

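RNA from 22 mouse libraries was sequenced as single-end reads of 50 bp, per the labels' protocols, with a regular-input stranded kit (100 ng) or a low-input kit (2 ng); which library had which is not stated. For 52636 genes the authors deposited raw counts, whole numbers without normalization, beside RPKM values that no step uses. GRCm38 is the build in the submitters' processing notes. No aligner or counter, and no use of strand, is given in the sources used here. Symbols, spans and exons came from GENCODE M21 (52489 identifiers matched). Reads shared by near-identical or overlapping genes cannot be told apart.

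Levels are CPM, with a library's plain total as denominator, per kilobase of exon where genes are compared. Tests used edgeR 4.0.16 (R 4.3.3, quasi-likelihood F test, 2-sided, TMM scaling, default filter on low counts, Benjamini-Hochberg adjustment over all genes tested, threshold 0.05), fitted on the groups compared, or on 4 groups for the difference of the age effects. Errors of fold changes are standard errors. Totals of 20586795 to 54421764 counts limit precision mainly for Ifng. Gbp2b in capsule tissue varied widely between libraries, with 70 counts in aged replicate 1, the deepest of them, and 896 in aged replicate 2. The 3 genes at or near 0 each lie inside another gene, as described above. Fits were tested on simulated data. Alternatives were DESeq2 1.42.0, limma-voom (limma 3.58.1), other scalings and filters, a replicate block, 1 fit over 6 groups, and leaving out libraries.

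The 10 genes and the 15 other lists were chosen with earlier results of these data known. Named were the 10 genes, Irf1, Ifng, Ifngr1 and Ifngr2, genes from among the 4 of smallest p in each list described (not all of the 4 are printed), other called family genes, and the 8 other genes most like the mean of the measured ones within groups (log2 CPM with a prior count of 2). 1 gene of that rule is not reported here. Of the list genes, 223 were in the files and 1 was not. Similarity was Pearson's r over the 22 libraries after subtracting group means, among genes of mean log2 CPM of at least 3.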

Additional observations from a re-analysis of the deposited data

Results flagged for a closer look

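In groups of 4 libraries, 4 of 28 gene and group pairs had 1 library far from the others. Chance alone flags about 1 in 20, but these pairs share libraries and the genes vary together. They are not independent, so no excess over chance is read from the count. Gbp2 in capsule macrophage replicate 4 had 228 CPM, Gbp5 in capsule macrophage replicate 2 had 24.8 CPM, Gbp7 in young RCAM replicate 2 had 214 CPM, and Irgm1 in aged RCAM replicate 3 had 177 CPM, each above the other libraries of its group.

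Ageing went with unequal changes in RCAM and in capsule tissue for 4 of the 7 measured genes, by a test of the difference itself (edgeR adjusted p under 0.05; 1.93% of all genes were called negative). The log2 difference, RCAM minus capsule tissue, was -1.03 for Gbp3, -1.04 for Gbp2, -1.34 for Gbp7 and -1.60 for Iigp1. The calls of Gbp3 and Gbp7 held with any 1 library left out. That of Gbp2 was lost in 11 of 14 such fits and that of Iigp1 in 8 of 14, and both were lost with the replicate block (adjusted p = 0.0832 for Gbp2 and 0.0564 for Iigp1). Macrophage markers had negative differences in 15 of 15 genes, and their part in these values was not tested.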

How the results depend on the processing

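Of the 7 measured genes, 5 to 6 were called between macrophages when a library was left out, 3 to 5 in RCAM, 2 to 4 for the difference of the age effects and 0 in capsule tissue. Of all genes, 48.5% to 54.4%, 2.9% to 4.06%, 1.45% to 8.17% and 0% to 2.26% were called in that order. With the replicate block the counts were 6 between macrophages, 1 in capsule tissue, 3 in RCAM and 2 for the difference. The block called 52.4%, 13.4%, 2.21% and 7.28% of all genes in the same order. With 1 fit over all 6 groups the counts were 5, 4, 2 (Gbp3 and Irgm1) and 6 in that order. That fit called 44.5%, 15.9%, 3.78% and 11.3% of all genes. With DESeq2 the counts were 6, 2, 6 and 6, where it called 58.3%, 11.5%, 9.49% and 12.5% of all genes. Over all genes, capsule tissue gave 39 calls, or 1095 with no filter, 11 with at least 10 counts in every library, 1876 by DESeq2, 25 by limma-voom, 2196 with the block, 3097 in 1 fit over all groups, 487 without replicate 2 of both ages, and 0 to 387 with a library left out (0 without young replicate 1 or aged replicate 1, 6 without young replicate 3, 23 without aged replicate 3, 115 without aged replicate 2 and 387 without young replicate 2). RCAM gave 729 calls, or 1441 by DESeq2, 336 with the block and 451 to 629 with a library left out (451 without young replicate 4, 454 without aged replicate 4). The difference of age effects gave 952, or 2355 by DESeq2, 2204 in 1 fit over all groups and 282 to 1594 with a library left out (282 without aged and 327 without young capsule replicate 1, 1594 without aged capsule replicate 3, and 491 to 633 without 1 of 7 RCAM libraries). Macrophages gave 8701, or 7745 to 8820 with a library left out and 7533 to 9148 under the other settings. The log2 fold change of Gbp2b in capsule tissue was -0.01 by limma-voom, -0.25 with the block, -1.54 without replicate 2 of both ages and -1.05 to 1.04 with a library left out; that of Irgm1 was -0.04 without both and -0.02 to 0.40 with a library left out. With a library left out, values between macrophages were -0.14 to 0.02 for Gbp3 and -0.13 to 0.08 for Irf1, and -0.18 to 0.05 for Irf1 in RCAM. The cause of these changes was not tested. In capsule tissue, deviations of same-numbered libraries correlated at r = 0.0986, 0.353 and 0.310, and each library correlated best with its own number. Between macrophages r was -0.0478 to 0.0357 and in RCAM -0.108 to -0.0261. The numbers were not taken as pairing, since the labels name no shared animal, litter or day and not every r was over 0.1.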
